A study of Mus musculus with 6 samples.

Results

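The genes described here build and run the DNA replication fork. They are 50 genes of origin licensing, the replicative helicase, the DNA polymerases and the proteins that travel with the fork, chosen by symbol or older synonym among the probes of an Illumina mouse bead array. All 50 had a probe, and 47 of them were detected on at least 3 of the 6 arrays and tested among 10209 genes. The study concerns N-Me, an enhancer of the proto-oncogene Myc that the transcription factor NOTCH1 binds. Total RNA came from 6 mice of the C57 BL6 strain, 1 array each. The 3 mice of the WT group were wild type for N-Me and received vehicle, which was corn oil. The 3 mice of the KO group carried the N-Me knockout and received tamoxifen in corn oil at 3 mg/kg. Injections were intraperitoneal, and mice of both groups were processed 40 h later. Genotype and drug changed together, so their parts in a difference cannot be told apart. The labels name no tissue, age or recombinase, and the titles call the arrays biological replicates.

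Replication starts when the origin recognition complex binds DNA and, with CDC6 and CDT1, loads the ring-shaped MCM helicase, a step called licensing. The kinase CDC7 with its partner DBF4, and the factors CDC45 and GINS, then switch the helicase on at the start of S phase. Polymerase alpha with primase lays the first primer, polymerase epsilon extends the leading strand and polymerase delta the lagging strand, held to DNA by the PCNA clamp that the RFC complex loads. Transcription factors of the E2F family, held in check by RB proteins, switch on many of these genes in dividing cells, and MYC is known as a promoter of entry into the cycle.

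Of the 47 tested genes, 8 fell and 0 rose at a Benjamini-Hochberg adjusted p under 0.05 by limma. They were Orc4, Mcm6, Dbf4, Pold1, Pold2, Pole, Rfc3 and Timeless. The 8 falls are 17.0% of the tested replication genes, beside 17.1% of all tested genes that fell, so the share that fell was near the background in this fit. With an array left out, 3 to 5 of the 47 fell, where 11.2% to 18% of all tested genes fell. The share of the replication genes was the smaller in each of those fits. Rises were called for 19.7% of all tested genes and for none of the replication genes. The median log2 fold change, KO minus WT, was -0.12 over the replication genes and 0.0011 over all tested genes. Values below 0 were seen for 30 of the 47 genes, or 63.8%, beside 49.9% of all tested genes. The 3 KO arrays all lay below the 3 WT arrays for 16 replication genes, against 24.4% of all tested genes, and all above them for 3, against 26.1%. In bulk RNA, fewer cells of a type and less RNA per cell cannot be told apart.

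**Figure D1:**
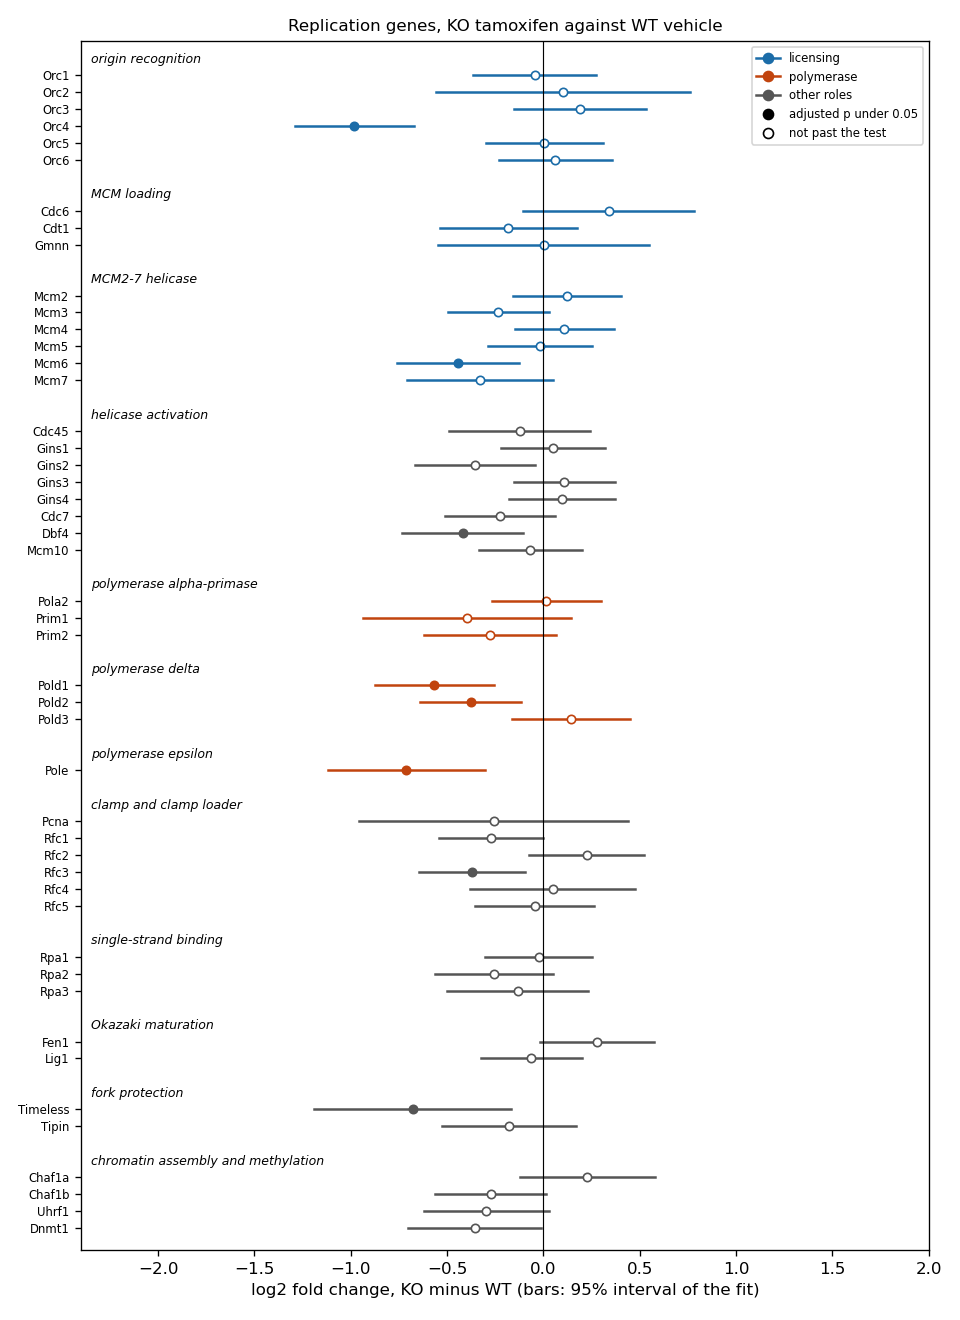
Log2 fold change of each of the 47 tested replication genes, KO tamoxifen minus WT vehicle, grouped by role, with the 95% interval of the limma fit. Filled points mark the 8 genes past the test, all on the negative side, and Orc4 at -0.98 lies farthest from 0.

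For most of these genes the 95% interval did not reach a 2-fold change. For 44 of the 47, or 93.6%, the 95% interval of the fold change lay between -1 and 1 on the log2 scale, beside 74.5% of all tested genes. A 2-fold change thus lay outside the interval of the brightest probe, which stood for each gene, and the 3 exceptions were Orc4, Pole and Timeless. Most dimmer further probes also stayed inside these limits, but some did not. Their intervals reached past 2-fold for Mcm6 (-1.40 to -0.44), Mcm4 (-1.06 to -0.12) and Cdc6 (0.10 to 1.23), among others. For the brightest probes, the interval lay between -0.5 and 0.5 for 18 genes, beside 25.0% of all tested genes. These counts depend on the size of the changes as well as on the width of the intervals. The median SE was 0.136 for the replication genes and 0.151 over all tested genes. Replication genes were also brighter, with a median WT signal of 11.06 (normalized log2) against 8.75 over all tested genes.

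The array carries 45281 probes. Between 18215 and 19486 passed a detection p under 0.05 in each mouse, and raw medians spanned 121.8 to 132.4. Myc itself was at -1.75 ± 0.16 (SE, log2 fold change, adjusted p = 0.000406). The size of the Myc fall depended on the processing. It was -1.25 without background correction and with the deposited log2 table, and -1.44 with normexp, and passed the test in each. Of the T cell marker genes, 7 of 10 were tested, 0 were called, and their mean signal was 12.05 to 12.11 on WT and 12.07 to 12.18 on KO arrays. Cd8a and Cd5 were not detected on any array. Markers of some other cell types moved with the groups, where 19.7% of all tested genes were called higher. Of the erythroid markers 5 of 7 tested were higher in KO (mean signal 11.46 to 11.86 in WT, 12.27 to 12.60 in KO), led by Gata1 at 1.37 (adjusted p = 0.00159). Hba-a1, at 0.16, and Slc4a1, at -0.18, missed the test. Of the macrophage and myeloid markers 8 of 9 were higher (9.25 to 9.33 against 9.90 to 10.50), led by C1qa at 1.30 (adjusted p = 0.00219). Of the stroma and endothelium markers 7 of 10 were higher (7.89 to 8.17 against 8.57 to 8.98), led by Vwf at 1.11 (adjusted p = 0.00117). Among B cell markers 1 of 6, Cd22 at 1.93 (adjusted p = 0.000605), was higher, no larger a share than that of all genes. Among NK and cytotoxic markers 1 of 3, Nkg7 at 2.89 (adjusted p = 0.000194), was higher. The remaining tested NK and cytotoxic markers did not follow Nkg7, with Klrb1c at -0.32 and Prf1 at 0.12, both short of the test. Neutrophil markers had 0 of 7 called, at 8.62 to 9.24 in WT and at 8.39, 10.68 and 10.29 on the KO arrays in order of replicate. Itgam, Kdr, Ncr1 and Gzmb were not detected on any array. The part of these shifts in the replication results was not tested.

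Among origin recognition genes, 1 of 6 fell, or 16.7%. Beside this and the counts of the roles below, 17.1% of all tested genes fell. Orc4 encodes a subunit of the ring that encircles origin DNA. Its signal was 7.78, 7.74 and 7.52 on the WT arrays and 6.58, 6.85 and 6.66 on the KO arrays. The groups did not overlap, and every KO array was lower than every WT array by more than the spread within either group. The fall was 1.97-fold, at a log2 fold change of -0.98 ± 0.14 (SE, n = 3 against 3, 95% interval -1.29 to -0.67, adjusted p = 0.00155). Its size depended on the processing, at -0.57 without background correction and with the deposited log2 table, and -0.62 with the mean over probes, where the call held. It was the largest change of the replication genes as reported, but not under these 3 settings: Timeless (-0.63) and Pole (-0.62) exceeded it in the first 2, and Pole (-0.71) in the third. A further Orc4 probe, dimmer and tested among all kept probes, also fell, at -0.62 ± 0.19 (adjusted p = 0.0374), and another was at -0.26 and missed the test. The remaining subunit genes showed no such shift. Orc1 was at -0.04, Orc2 at 0.10, Orc3 at 0.19, Orc5 at 0.0052 and Orc6 at 0.06. Their intervals all lay above that of Orc4, the lowest reaching -0.56, for the dim Orc2. Orc2 read 6.50, 5.32 and 6.12 on the WT arrays, was detected on 2 of these 3, and had the widest spread of the 6 genes. Orc5 stayed within 11.13 to 11.48 on all arrays.

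The genes that load the helicase or hold loading back had 0 of 3 called. Cdc6, which brings the helicase to the origin recognition complex, read 11.16, 11.31 and 10.94 in WT and 11.06, 11.75 and 11.62 in KO. KO replicate 1 thus lay inside the WT range and the other KO arrays above it. The difference was 0.34 ± 0.19 (SE, 95% interval -0.10 to 0.78, adjusted p = 0.205), and without KO replicate 1 it was 0.55 with an adjusted p of 0.0236. Cdt1, the partner of CDC6 in loading, was at -0.18 (interval -0.54 to 0.17). Gmnn encodes geminin, which binds CDT1 and blocks relicensing. It was dim, at 5.72, 5.76 and 5.68 in WT and 5.09, 6.03 and 6.04 in KO, and KO replicate 1 was below detection.

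Of the genes of the helicase ring, Mcm6 fell and the other 5 did not pass, a share of 16.7% beside 17.1% of all tested genes. Mcm6 read 12.94, 13.14 and 13.25 in WT and 12.51, 12.82 and 12.67 in KO. The groups did not overlap, but the gap between them was narrower than the range within either. The change was -0.44 ± 0.14 (SE, 95% interval -0.76 to -0.13, adjusted p = 0.0361), a fall of 1.36-fold. The 3 further Mcm6 probes were all below 0, and the dimmest, at -0.92 ± 0.21, passed among all kept probes (adjusted p = 0.0125). Mcm7 was at -0.33, Mcm3 at -0.23, Mcm5 at -0.02, Mcm4 at 0.11 and Mcm2 at 0.12. Mcm7 and Mcm3 were lower on every KO array than on any WT array, as were 24.4% of all tested genes. The brightest Mcm4 probe was higher on every KO array, but its 2 further probes were at -0.59 and -0.45, and Mcm4 was at -0.31 with the mean over probes and at -0.05 with arrays scaled to one median. The intervals of the highest and lowest subunit still overlapped, since that of Mcm6 reached up to -0.13 and that of Mcm2 down to -0.16.

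Promoter sequence was not used to choose these genes. RefSeq promoter windows of build GRCm38.p6 were matched for 41 of the 50 genes, 53 windows in all, and the 250 bases before each start were searched on both strands. An E2F word, one of TTTGGCGC, TTTCGCGC, TTTCCCGC and TTTGCCGC, was found in 20.8% of the replication windows and in 1.86% of all 32851 windows. Licensing genes held one in 6 of 17 windows and polymerase genes in 1 of 8. The polymerase match was in Pola1, which was not detected on any array and not tested, and Pole had no window. The E-box CACGTG, the word MYC with MAX binds, was found in 13.2% of the replication windows against 6.02% of all, and the CCAAT word in 52.8% against 33.8%. The windows of 4 genes are printed in lower case, 5′ to 3′, with E2F words or the E-box in capitals. They are those of the 3 genes that fell and held such a word, and that of Mcm5 for comparison with Mcm6.
Mcm6 (chr1:128359706-128359955, minus strand): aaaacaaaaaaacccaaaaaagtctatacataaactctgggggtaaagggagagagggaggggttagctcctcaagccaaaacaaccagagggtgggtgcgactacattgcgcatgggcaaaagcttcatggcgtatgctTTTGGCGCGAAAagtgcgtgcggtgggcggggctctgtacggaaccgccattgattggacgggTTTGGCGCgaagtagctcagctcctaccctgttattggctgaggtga
Mcm5 (chr8:75109259-75109508, plus strand): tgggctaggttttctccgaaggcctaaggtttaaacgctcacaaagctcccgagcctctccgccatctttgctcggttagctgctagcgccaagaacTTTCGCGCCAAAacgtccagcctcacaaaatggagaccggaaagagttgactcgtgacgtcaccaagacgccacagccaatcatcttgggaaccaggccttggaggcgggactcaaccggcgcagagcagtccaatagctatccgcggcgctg
Orc4 (chr2:48949268-48949517, minus strand): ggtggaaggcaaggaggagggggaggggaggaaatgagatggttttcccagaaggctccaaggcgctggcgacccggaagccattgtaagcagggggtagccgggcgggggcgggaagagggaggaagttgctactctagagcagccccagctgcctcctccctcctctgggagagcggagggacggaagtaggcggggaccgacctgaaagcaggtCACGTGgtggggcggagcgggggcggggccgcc
Rfc3 (chr5:151651209-151651458, minus strand): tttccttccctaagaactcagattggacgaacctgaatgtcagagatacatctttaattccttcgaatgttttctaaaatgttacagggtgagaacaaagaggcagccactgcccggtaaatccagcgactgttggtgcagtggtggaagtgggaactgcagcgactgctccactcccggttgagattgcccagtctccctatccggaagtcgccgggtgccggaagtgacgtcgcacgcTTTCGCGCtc
Mcm6 holds 3 E2F words, of which a pair on opposite strands overlap, and Mcm5 holds 2 overlapping ones. Mcm6 fell and Mcm5 was at -0.02 (95% interval -0.29 to 0.25), so windows with such words belonged to genes of either result. Among the 7 called genes with a window, 10 windows in all, 2 held an E2F word and 1, Orc4, the E-box. Another Orc4 window held neither. A word is a match of letters, not a site shown to be bound.

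Genes that turn the loaded helicase on had 1 of 8 called, or 12.5%, beside 17.1% of all tested genes that fell. Dbf4, the regulatory partner of the CDC7 kinase, read 11.37, 11.43 and 11.51 in WT and 10.79, 11.13 and 11.14 in KO, with no overlap. It fell by 0.42 on the log2 scale (SE 0.14, adjusted p = 0.0427), and its 2 further probes were below 0 without passing. Cdc7 was at -0.23 (interval -0.51 to 0.06), and its KO arrays also lay below all WT arrays. Within GINS, the complex that joins CDC45 to the helicase, Gins2 was at -0.36 (adjusted p = 0.0712), while Gins1, Gins3 and Gins4 were at 0.05, 0.11 and 0.10. The intervals of Gins2, -0.67 to -0.04, and Gins3, -0.15 to 0.37, overlapped. Cdc45 was at -0.12 and Mcm10, which helps the helicase at the start of unwinding, at -0.07. Mcm8, a helicase of repair outside the ring, was not detected on any array and was not tested.

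**Figure D2:**
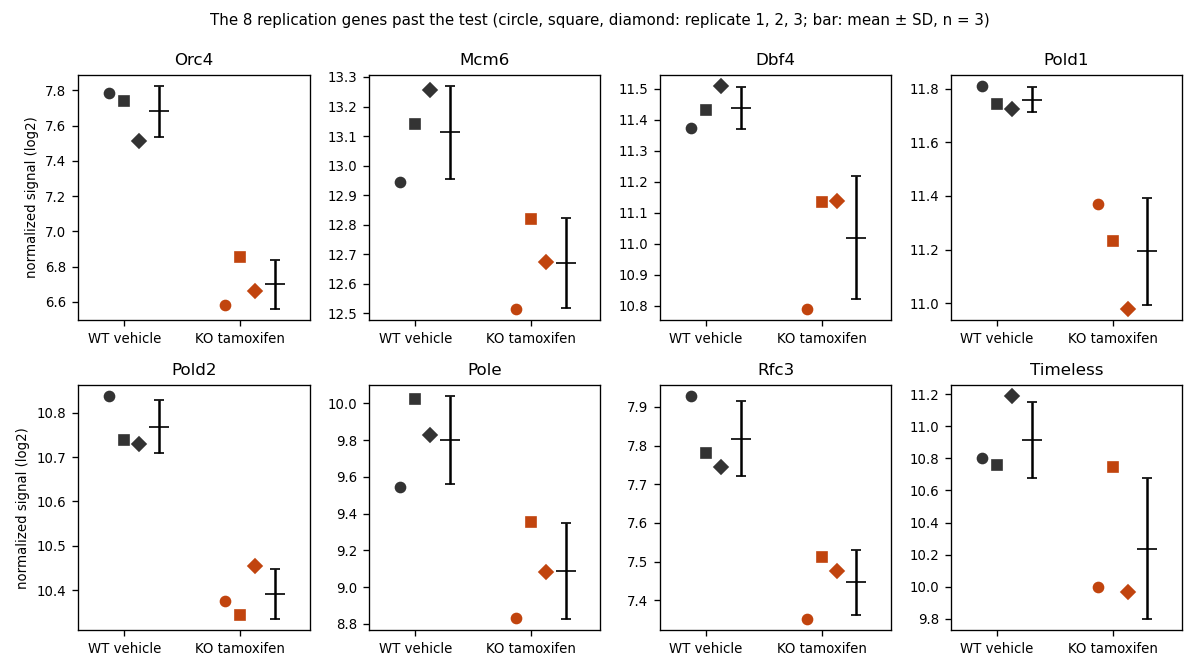
Normalized log2 signal of the 8 replication genes past the test on each array, with mean ± SD (n = 3). The axis of each panel spans its own range and does not start at 0. No panel shows overlap, and KO replicate 1 is the lowest KO array for Orc4, Mcm6, Dbf4, Pole and Rfc3.

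The polymerase genes held 3 of the 8 falls, in the catalytic subunits of epsilon and delta and the second subunit of delta. Pole, the catalytic subunit of polymerase epsilon, read 9.55, 10.02 and 9.83 in WT and 8.83, 9.35 and 9.08 in KO. All KO arrays were below all WT arrays, and the fall was 1.64-fold (log2 -0.71 ± 0.18 SE, 95% interval -1.12 to -0.31, adjusted p = 0.0151). Pold1, the catalytic subunit of polymerase delta, read 11.81, 11.75 and 11.72 in WT and 11.37, 11.23 and 10.98 in KO. WT arrays lay within 0.09 of each other, and the change of -0.57 ± 0.14 (adjusted p = 0.0129) was a fall of 1.48-fold. Pold2, a regulatory subunit, read 10.84, 10.74 and 10.73 in WT and 10.38, 10.34 and 10.45 in KO, a tight separation of -0.38 ± 0.11 (adjusted p = 0.0320). Pold3, an accessory subunit of the same enzyme, did not follow. It read 10.57, 10.54 and 10.35 in WT and 10.63, 10.79 and 10.47 in KO, at 0.14 ± 0.14 (interval -0.17 to 0.45). Its interval lay above that of Pold1, which ended at -0.26, and above that of Pold2, which ended at -0.12, apart from the stretch from -0.17 to -0.12.

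Polymerase alpha and primase had 0 of 3 tested genes called. Prim1, the catalytic subunit of primase, was dim and spread, at 6.18, 6.58 and 5.89 in WT and 5.45, 6.25 and 5.75 in KO, and the groups overlapped. Its value of -0.40 ± 0.24 came with an interval from -0.94 to 0.14. Prim2, the other primase subunit, was at -0.28 (interval -0.62 to 0.06) and Pola2, the regulatory subunit of polymerase alpha, at 0.01 (interval -0.27 to 0.30). Pola1, the catalytic subunit of alpha, was detected on 0 arrays. Pole2, a subunit of epsilon, was detected on 1 array at most for either of its probes. The polymerase count therefore rests on 7 of 9 genes.

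The clamp and its loader had 1 of 6 called, or 16.7%, beside 17.1% of all tested genes that fell. Rfc3, a subunit of the loader, read 7.93, 7.78 and 7.74 in WT and 7.35, 7.51 and 7.48 in KO, and fell by 0.37 on the log2 scale (SE 0.12, adjusted p = 0.0415). Rfc1, the large subunit, was at -0.27 (adjusted p = 0.105) with KO arrays below all WT arrays. Rfc2 was at 0.22, Rfc4 at 0.05 and Rfc5 at -0.04. Pcna, the clamp itself, read 9.90, 9.65 and 9.88 in WT and 8.76, 10.14 and 9.75 in KO. KO replicate 1 stood far below the others, which gave Pcna the widest KO range of the 47 genes, 1.39, and an interval from -0.96 to 0.44.

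Single-strand binding and the joining of lagging-strand fragments had 0 of 5 called. Of the subunits of RPA, which coats single-stranded DNA, Rpa1 was at -0.03, Rpa2 at -0.26 and Rpa3 at -0.13. Fen1, the nuclease that trims flaps between fragments, read 12.69, 12.99 and 12.82 in WT and 13.07, 13.21 and 13.05 in KO. It was 1 of the 3 replication genes whose KO arrays all lay above WT, with Mcm4 and Gins3, at 0.28 ± 0.13 (interval -0.02 to 0.57, adjusted p = 0.126). It passed with a trended, robust prior (adjusted p = 0.0448), where 18.4% of all genes fell and 20.8% rose. Lig1, the ligase that seals the fragments, was at -0.06 (interval -0.33 to 0.20), with WT arrays within 0.02 of each other.

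Of the fork protection pair, Timeless passed and its partner Tipin did not. Timeless read 10.80, 10.76 and 11.19 in WT and 9.998, 10.74 and 9.97 in KO. KO replicate 2 lay just under the lowest WT array and the other KO arrays far below. The change was -0.68 ± 0.23 (SE, 95% interval -1.19 to -0.17, adjusted p = 0.0435). Its 2 further kept probes were at -0.38 and -0.42 and missed the test among all kept probes. Tipin was at -0.18 (interval -0.53 to 0.17), so the intervals of the partners overlapped.

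Genes of chromatin assembly and of methylation behind the fork had 0 of 4 called. Dnmt1, which copies DNA methylation to the new strand, read 12.34, 12.19 and 12.17 in WT and 11.60, 12.08 and 11.96 in KO, at -0.36 ± 0.15 (adjusted p = 0.0979). Uhrf1, which guides DNMT1 to hemimethylated DNA, was at -0.30 (adjusted p = 0.137). A dim further Uhrf1 probe, detected on 3 WT arrays and 1 KO array, was lower at -0.59 ± 0.15 (adjusted p = 0.0163 among all kept probes). Of the chromatin assembly factor subunits, which deposit histones on new DNA, Chaf1b was at -0.27 and Chaf1a at 0.23. Dnmt1, Uhrf1 and Chaf1b were lower on every KO array than on any WT array, as were 24.4% of all tested genes, and none of these role members passed the test.

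Licensing and polymerase genes were then set side by side. Of 15 licensing genes, 2 fell and 0 rose, at a median log2 fold change of 0.00042. Of 7 tested polymerase genes, 3 fell and 0 rose, at a median of -0.38. The medians differed by 0.38, and each is the value of a single gene, the dim Gmnn for licensing and Pold2 for polymerase. As shares, 13.3% of licensing and 42.9% of polymerase genes fell, beside the 17.1% of all tested genes given above, and 3 of 7 is a small count. The mean signal of the licensing genes, as the log2 difference from the WT mean, was 0.01, -0.03 and 0.02 on the WT arrays and -0.25, 0.03 and -0.04 on the KO arrays in order of replicate. The polymerase genes were at -0.03, 0.10 and -0.07 on the WT arrays and -0.39, -0.19 and -0.35 on the KO arrays. Every KO array thus read below every WT array for the polymerase mean. For licensing, KO replicate 1 read far below and KO replicate 3 just below the WT arrays, and KO replicate 2 just above them. Licensing minus polymerase was 0.04, -0.13 and 0.10 in WT and 0.14, 0.22 and 0.31 in KO. Without KO replicate 1 the medians differed by 0.23, and without WT replicate 2 by 0.21. No test was made of this difference, because the genes were chosen with earlier results of these data known.

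**Figure D3:**
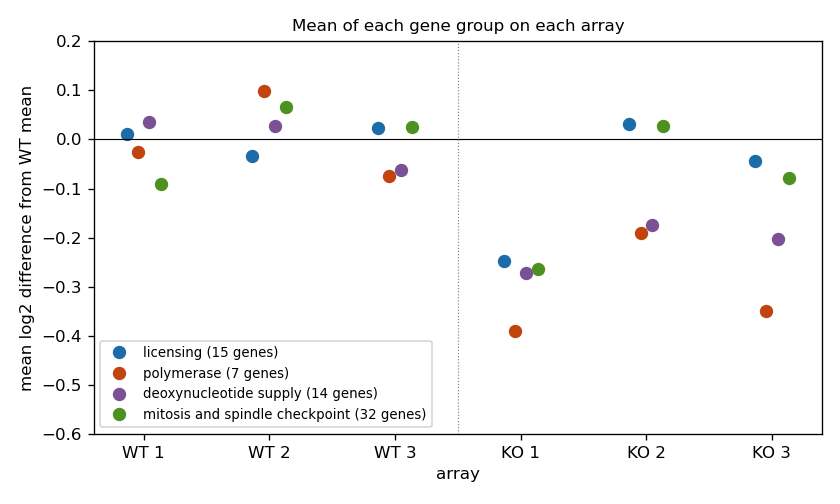
Mean over the genes of each group of the log2 difference from each gene's WT mean, on each of the 6 arrays. On the KO arrays the polymerase genes lie at -0.39, -0.19 and -0.35, and the licensing genes at -0.25, 0.03 and -0.04.

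KO replicate 1 stood apart from the other KO arrays for many replication genes. It was the lowest KO array for 31 of the 47 genes, KO replicate 2 for 4 and KO replicate 3 for 12. The mean over the 47 genes, as the log2 difference from WT, was -0.29, -0.03 and -0.12 on the KO arrays, and between -0.01 and 0.02 on the WT arrays. The neutrophil markers given above were also low on KO replicate 1 alone among the KO arrays. B cell, macrophage and myeloid, and erythroid markers had their lowest KO means there, at 0.22, 0.62 and 0.61 above WT. Stroma and endothelium markers, at 0.96, and NK and cytotoxic markers, at 1.01, had their highest there. Raw median signal was 121.8 on that array, the lowest of the 6. Their part in the replication values was not tested. Without this array, Orc4, Pold1 and Pole remained called and Cdc6 was higher.

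**Figure D4:**
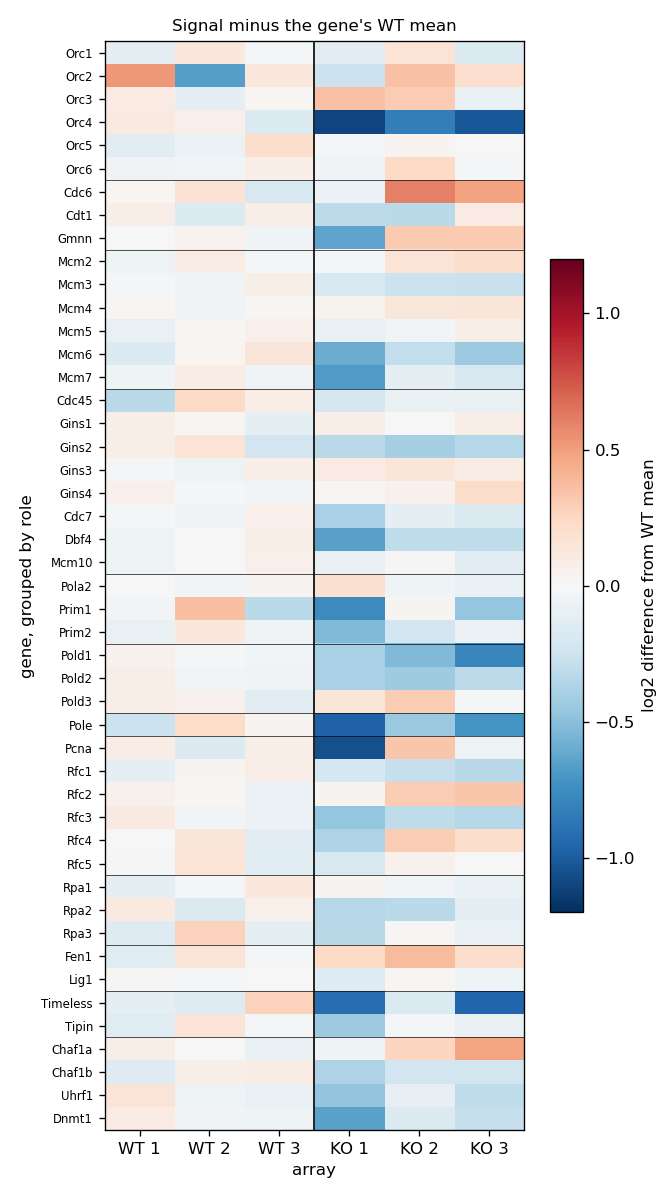
Log2 signal of the 47 tested replication genes minus each gene's WT mean, on each array, grouped by role. The KO replicate 1 column holds the lowest KO value for 31 genes, and Orc4 and Pole are low on all 3 KO arrays.

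How far each call depended on single arrays was examined by leaving out each in turn, where 1 fewer array leaves less to test with. Orc4 kept its call in all 6 cases, at -1.06 to -0.92 (adjusted p up to 0.00908), as did Pold1, at -0.65 to -0.46 (up to 0.0495). Pole lost it without WT replicate 3 alone (-0.70, adjusted p = 0.0534). Mcm6 passed when WT replicate 1 or KO replicate 2 was absent and missed the test otherwise, at -0.53 to -0.37 over the 6 cases (adjusted p up to 0.122). Timeless kept it only without KO replicate 2, where it was at -0.93, and ranged from -0.93 to -0.54 (up to 0.148). Dbf4 (-0.48 to -0.30, up to 0.126), Pold2 (-0.41 to -0.34, up to 0.110) and Rfc3 (-0.41 to -0.32, up to 0.143) lost it in all 6 cases. Calls were also gained. Gins2 was lower without WT replicate 3, at -0.47 (adjusted p = 0.0430), and with no background correction, normexp, the deposited table or a trended, robust prior (adjusted p 0.0389 to 0.0481). Rfc1 was lower with no background correction, arrays scaled to one median or the deposited table (up to 0.0480). Mcm7 (-0.36, 0.0291) and Uhrf1 (-0.44, 0.0272) were lower with the mean over probes, and Dnmt1 (-0.36, 0.0399) with a trended, robust prior. With the titles' replicate number as a block, 5 replication genes fell, and Pold2, Rfc3 and Timeless did not pass, at adjusted p = 0.0584 for Pold2, 0.0742 for Rfc3 and 0.0540 for Timeless, where 16.6% of all genes fell and 19.7% rose. Among other alternatives, the mean over probes ended the call of Dbf4 (-0.31, adjusted p = 0.126), array weights that of Mcm6 (adjusted p = 0.0507) and Timeless (0.0685), and no filter that of Timeless (0.0944). Rfc3 also missed the test without background correction, with arrays scaled to one median, with the deposited log2 table and with a trended, robust prior (adjusted p up to 0.115). Leaving out WT replicate 1, 2 or 3 left 4, 3 and 3 falls, where 11.2%, 14.9% and 11.2% of all genes fell and 13.4%, 17.8% and 13.1% rose. Leaving out KO replicate 1, 2 or 3 left 3, 5 and 3 falls, where 18%, 13.9% and 11.8% of all genes fell and 20.5%, 16.3% and 13.9% rose. Tested among all kept probes in place of genes, 3 of the 8 missed the test, Dbf4 at adjusted p = 0.0533, Rfc3 at 0.0536 and Timeless at 0.0502. For single genes, the exact permutation test over the 3 against 3 arrays, 2-sided, gave p = 0.1 for each of the 8, the smallest it allows.

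**Figure D5:**
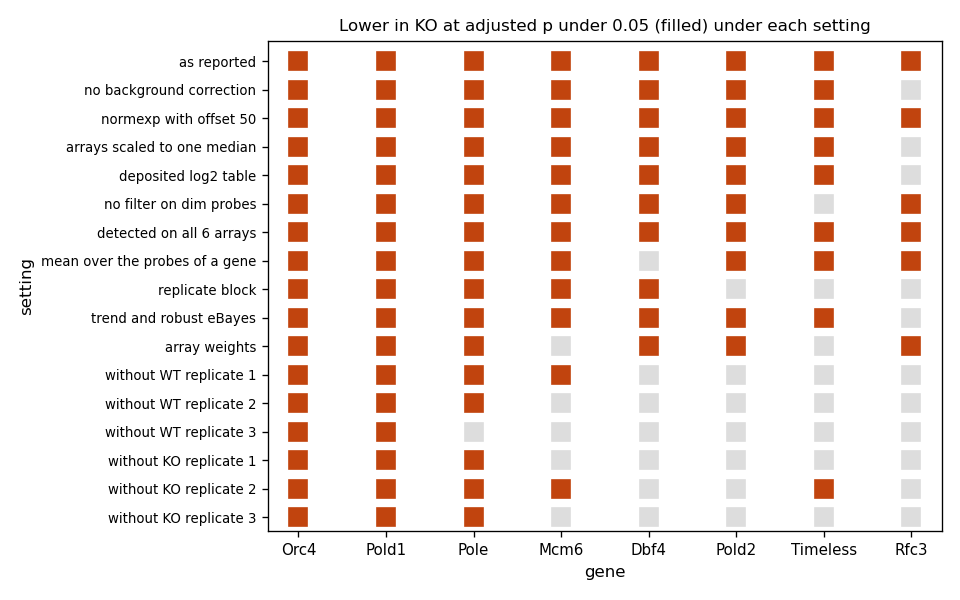
Each of the 8 replication genes past the test (columns) under the reported setting and 16 alternatives (rows). A coloured square marks an adjusted p under 0.05 with a fall in KO. Orc4 and Pold1 are coloured in every row, Pole in all but the row without WT replicate 3, and Rfc3, Pold2 and Dbf4 in none of the rows that leave out an array.

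Other genes of the replication machinery were counted from a list of 36, of which 33 were tested. Of these 6 fell and 3 rose, at a median of -0.13, beside 17.1% and 19.7% of all tested genes. The 5 called genes with the largest change are named here and all fell, and no value of the list was above 0.52. Cdca7, a partner of the chromatin remodeller HELLS, read 13.74, 13.53 and 13.75 in WT and 12.45, 12.62 and 12.24 in KO, a fall of 1.24 ± 0.14 on the log2 scale (adjusted p = 0.000913). Pclaf, which binds PCNA, was at -0.67 ± 0.15 (adjusted p = 0.00899). Both kept their calls with each array left out. Topbp1, which helps CDC45 onto origins, was at -0.58 ± 0.15, Rif1, a regulator of origin timing, at -0.60 ± 0.16, and Ing5, a subunit of histone acetyltransferases, at -0.56 ± 0.14. Topbp1 and Ing5 lost the call without WT replicate 1 (adjusted p up to 0.0563). Rif1 lost it when WT replicate 2 or 3, or KO replicate 3, was left out (up to 0.0727), and with arrays scaled to one median (-0.55, 0.0547). Rif1 was at -0.31 and Ing5 at -0.21 without background correction and with the deposited table, where Rif1 passed and Ing5 did not (0.0906). Ing5 also missed the test with normexp (-0.29, 0.0517) and the mean over probes (-0.25, 0.164). The counts were 3 falls and 0 rises without WT replicate 1, 6 falls and 5 rises without KO replicate 1, and 4 falls and 1 rise without KO replicate 3.

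Regulators of these genes and the supply of their substrate were set beside them. Of 15 tested E2F and RB family genes, 1 fell and 1 rose. Tfdp1, the dimer partner of E2F proteins, was at -0.45 ± 0.14 (adjusted p = 0.0324) and Rb1, which represses them, at 0.54 ± 0.16 (adjusted p = 0.0279). Tfdp1 missed the test in 4 of the 6 fits on 5 arrays, those leaving out WT replicate 1 or 3 or KO replicate 2 or 3 (adjusted p up to 0.113). Rb1 missed it in 3, those leaving out WT replicate 1 or 3 or KO replicate 2 (up to 0.100), and with arrays scaled to one median (0.134). Of 14 deoxynucleotide supply genes, 5 fell and 2 rose, at a median of -0.16. Dctd, which deaminates dCMP, was at -1.27 ± 0.14, Dut, which removes dUTP, at -1.01 ± 0.20 and Nme2, a nucleoside diphosphate kinase, at -0.81 ± 0.13. The rises were in Samhd1, which breaks down deoxynucleotides, at 1.03 ± 0.21, and Rrm2, the small subunit of ribonucleotide reductase, at 0.65 ± 0.13. These 5 genes passed in every fit on 5 arrays, but with the mean over probes Rrm2 was at 0.29 (adjusted p = 0.0617), and Nme2, still past the test, at -0.53.

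Of 32 tested genes of mitosis and the spindle checkpoint, 4 fell and 1 rose, at a median of -0.09. Their mean over the list, as the difference from WT, was -0.26, 0.03 and -0.08 on the KO arrays. KO replicate 1 was the lowest KO array, as for the licensing, polymerase, other replication and deoxynucleotide supply genes. Mad2l1, a checkpoint protein, was at -0.49 ± 0.12 (adjusted p = 0.0153), and missed the test when WT replicate 1 or KO replicate 3 was left out (up to 0.0520). Bub1b, Kif20b and Aurkb, which act at the kinetochore, on the spindle and in chromosome segregation, were at -0.50, -0.49 and -0.47. Cdc25b, a phosphatase that activates mitotic kinases, was at 0.46. Each of these 4 missed the test in at least 2 of the 6 fits on 5 arrays (adjusted p up to 0.157). Kif20b and Cdc25b also missed it with arrays scaled to one median (0.0649 and 0.148) and with no filter (0.0723 and 0.0653), Kif20b with array weights (0.0766), and Cdc25b with the mean over probes (0.0720). The shares of each list that fell were 18.2% of the other replication genes, 6.67% of the E2F and RB family, 35.7% of deoxynucleotide supply and 12.5% of mitosis, beside 17.1% of all tested genes.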

How the data were processed

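Biotin-labelled total RNA from 6 mice was run on Illumina bead arrays, per the labels. Per the file headers, the authors' raw table gives every probe an intensity and a detection p-value on each array, 45281 probes in all. A deposited log2 table equals the quantile-normalized log2 raw signals within 5e-05, and its columns have a median of 7.01. Its scale is thereby settled, and genes were not centred. The scanner software is not given in the sources used here, and 0 columns of samples were left aside.

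The function neqc of limma 3.58.1 (R 4.3.3) corrected background with controls inferred from detection, added 16 to each signal and quantile normalized, so differences are relative to a common distribution and those of dim genes depend on the correction. Probes detected at p under 0.05 on at least 3 arrays were kept (19082). By the platform annotation 34885 probes carry 1 symbol, 18 carry several and 10378 carry none. RefSeq held 34807 of the probes' Entrez identifiers. The brightest probe stood for each gene. lmFit and eBayes tested KO minus WT, 2-sided, with group as the only term and adjustment over all 10209 genes. Further probes were tested among all kept probes. The arrays are few, which limits precision.

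The genes, lists, tests and the choice of named genes were made with earlier results of these data known. All 50 genes are named, and of each list up to 5 called genes with the largest change. Values per array are given for called genes and the largest change of each role, and for a few more chosen after their values were seen. No list was given a p-value. Alternatives were no or another background correction, median scaling, the deposited table, other filters, the mean of probes, a replicate block, other variance models, array weights, and leaving out each array. Promoter sequences are RefSeq windows of GRCm38.p6, and 9 genes had none. Figures were drawn with matplotlib 3.10.9.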

Additional observations from a re-analysis of the deposited data

How the results depend on the processing

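Of the 47 tested replication genes, 34 stayed on the same side of the threshold in all 16 alternatives that could test them, 6 lost a call in at least 1 and 7 gained one. The count that fell was 8 as reported, 5 with a replicate block and 3 to 5 with an array left out. The count that rose was 0, and was 1 with trend and robust eBayes (Fen1) and 0 to 1 with an array left out. The medians of licensing and polymerase genes differed by 0.38, and by 0.26 without background correction, 0.27 with normexp and an offset of 50, 0.26 with the deposited log2 table, 0.26 with array weights and 0.21 to 0.41 with an array left out. Over all genes, 1143 to 1837 fell and 1342 to 2092 rose with an array left out. Of the other replication genes, 3 to 6 fell and 0 to 5 rose with an array left out, and 1 rose when arrays were scaled to one median. That scaling put the median of all genes at -0.05 and of the replication genes at -0.24. Sign changes came only from genes that missed the test under both settings: 16 replication genes, with 39 values between -0.31 and 0.14. The largest of them as reported was Pcna, at -0.26. The deviations of same-numbered arrays from their group means correlated at 0.17, 0.12 and -0.08 across genes. With 3 arrays per group, this cannot decide whether they were paired. Probes near background, such as those of Gmnn, Prim1 and Orc2, limit what could be measured for these genes.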

Other observations

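Probes of 1 gene did not always give the same value. Of 32 further kept probes of 18 replication genes, 28 had the sign of the brightest probe, 26 were below 0, 3 were called lower and 0 higher among all kept probes, where 16.5% were lower and 15.7% higher. Mcm4 differed most plainly in sign. Its brightest probe read 13.40 to 13.46 in WT and 13.48 to 13.58 in KO, at 0.11. A dimmer probe read 7.16, 6.80 and 6.78 in WT and 6.71, 6.32 and 5.94 in KO, at -0.59 ± 0.21 (SE, adjusted p = 0.0596), and the third was at -0.45 (adjusted p = 0.180). For Mcm6 the dimmest probe fell by 0.92 on the log2 scale while the others were at -0.31 to -0.44, and for Cdc6 a dim probe was at 0.67 beside 0.34. The positions of the probes in the transcripts were not analysed here.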
